A study of Mus musculus with 38 samples.

Results

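The regulators of DNA methylation and of Polycomb silencing followed here in mouse liver are 10 genes: Dnmt1, Uhrf1, Hells, Dnmt3a, Dnmt3b, Tet2, Ezh2, Ezh1, Eed and Suz12. They were taken by symbol from the tables of RPKM (reads scaled to gene length and to the reads of the library), in which 10 of 10 were found among 21644 genes per table. The question of the study was how Myc and YAP act together on growth and gene expression, and RNA from whole liver was sequenced in 38 libraries of 9 groups. In the R26 system every mouse, WT included, carries R26-rtTA, which expresses a doxycycline-dependent activator from a broadly active locus. R26-rtTA;tet-Myc;tet-YAP livers (3 libraries, named tet-Myc/YAP), R26-rtTA;tet-YAP livers (6) and R26-rtTA;tet-Myc livers (4) were induced for 2 days, and no time is labelled for the R26-rtTA;WT livers (4). In the LAP system every mouse, WT included, carries LAP-tTA, an activator driven by a promoter used for expression in the liver. LAP-tTA; tet-Myc; tet-YAP livers (3), LAP-tTA;tet-YAP livers (4) and LAP-tTA;tet-Myc livers (3) are labelled 4 weeks, while the 8 tumours, which arose in LAP-tTA;tet-YAP mice, and the LAP-tTA;WT livers (3) carry no time. The tet-YAP transgene encodes an activated mutant of YAP. Age is not labelled. Nothing says whether libraries came from separate animals, so the p-values reflect how far libraries of a group lay apart, which may be technical. In the R26 system 6 pairs of libraries lay closer than the others of their group (tet-Myc/YAP 1 and 2, tet-YAP 1 and 4, 2 and 5, and 3 and 6, WT 1 and 4, and 2 and 3), and whether each pair came from 1 RNA is not given in the sources used here. If so, n would be 2 tet-Myc/YAP, 3 tet-YAP and 2 WT livers. LAP tet-YAP libraries 3 and 4 also lay closer than the others of their group, and whether they came from 1 RNA is not given either.

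DNA methylation is copied at replication by Dnmt1, which Uhrf1 brings to newly made DNA and for which the remodeler Hells opens chromatin. New methylation is set by Dnmt3a and Dnmt3b, and Tet2 oxidizes methylcytosine, a step toward its loss. The Polycomb complex PRC2 trimethylates a lysine of histone H3 and so keeps developmental genes silent, with Ezh2 or its paralog Ezh1 as the enzyme and Eed and Suz12 as core subunits. Ezh2 is known as the form of dividing cells and Ezh1 as that of resting cells, and an adult liver is mostly resting.

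Each library rested on 24100000 to 43300000 reads in the R26 system and 22600000 to 54300000 reads in the LAP system, as worked out from the steps of low RPKM. In none of the libraries did the sixth-highest gene exceed 67.3 RPKM, and it was at 28.7 to 38.6 RPKM in tumours against 43 to 67.3 RPKM in LAP WT. This level is called the cap here. Every tumour library was deeper than every LAP WT library, so the lower cap went with deeper sequencing. In R26 tet-Myc/YAP the cap was at 33.8 to 55.7 RPKM, against 52.9 to 62.3 RPKM in WT. There tet-Myc/YAP libraries 1 and 2 were deeper than every WT library. Differences of abundant genes are therefore compressed, and such genes may also appear lower in groups with deeper libraries. The regulators did not exceed 8.03 RPKM. Hepatocyte markers, of which 8 of 8 were detected in every group, summed to 88.1 to 163 RPKM in tumours and 253 to 373 RPKM in LAP WT, and 8 of 8 were lower in tumours by the test given below. Cholangiocyte markers summed to 41.9 to 92.7 RPKM in tumours and 8.75 to 12 RPKM in LAP WT, and neutrophil markers to 6.91 to 55.4 RPKM in tumours and 0.601 to 5.14 RPKM in LAP WT. In R26 tet-Myc/YAP the hepatocyte markers summed to 184 to 284 RPKM, against 257 to 390 RPKM in WT, and 6 macrophage markers to 38.4 to 42.5 RPKM, against 80 to 100 RPKM in WT. In LAP tet-YAP those macrophage markers summed to 91.3 to 124 RPKM, against 44.4 to 79.4 RPKM in WT, and no marker of these lists was at 0 in a whole group. In bulk RNA fewer cells of a type and less RNA per cell cannot be told apart. The cap on abundant genes may also lower the hepatocyte sums in deeper libraries, and its part was not tested. The part of cell makeup in the results below was not tested either. A female pattern of Xist and Y-linked genes was seen in 17 of 38 libraries, among them all 8 tumours, R26 tet-Myc/YAP library 3 and LAP WT libraries 2 and 3. Myc was at 2.92 ± 0.214 RPKM in R26 tet-Myc/YAP (SD, n = 3), 1.81 ± 0.307 in tet-YAP (n = 6), 2.19 ± 1.22 in tet-Myc (n = 4) and 0.664 ± 0.118 in WT (n = 4), and the library labelled tet-Myc 4 was at 0.609, within the WT range. In the LAP system Myc was at 1.29 ± 0.508 RPKM in the libraries labelled tet-Myc and 1.66 ± 1.35 in WT (n = 3 each), and Yap1 was at 4.59 ± 0.248 in those labelled tet-YAP (n = 4) and 4.84 ± 0.303 in WT (n = 3). Whether these mouse genes count transcripts of the transgenes is not given in the sources used here. In R26 livers Yap1 was at 4.92 ± 0.123 RPKM in tet-Myc/YAP (n = 3), 5.46 ± 0.37 in tet-YAP (n = 6) and 5.06 ± 0.192 in WT (n = 4). The LAP tet-Myc labels and the YAP labels of both systems thus have no check in these values.

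Differences are given on the log2(RPKM + 0.5) scale, which understates those of low genes, and a gene is said to have risen or fallen where its adjusted p in limma was under 0.05 and its difference at least 0.5. All 10 regulators entered the test in both systems, which covered 11263 R26 and 12591 LAP genes with 1 RPKM or more in at least 3 libraries. In the R26 system Hells reached 1 RPKM in exactly 3 libraries, all tet-Myc/YAP, and Uhrf1 in 4, these and tet-Myc library 1, so both entered that test because they were high there. With no filter on low values both still passed in tet-Myc/YAP against WT. Their differences, 1.96 for Uhrf1 and 1.64 for Hells, do not depend on which genes enter. Their SE and p-values can, since limma draws on the spread of all genes that enter.

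The promoters of the 3 regulators that rose in R26 tet-Myc/YAP livers against WT are shown. They are the stretches free of annotated exons within the 250 bases before each RefSeq start, from the mouse build GRCm38.p6, 5′ to 3′ on the strand of the gene, and capitals mark matches to the motifs named below. Uhrf1 has 2 starts, at chr17:56303087-56303320 and chr17:56304063-56304312 (plus strand), Hells lies at chr19:38930740-38930914 (plus strand) and Ezh2 at chr6:47595059-47595183 (minus strand).
Uhrf1, first start: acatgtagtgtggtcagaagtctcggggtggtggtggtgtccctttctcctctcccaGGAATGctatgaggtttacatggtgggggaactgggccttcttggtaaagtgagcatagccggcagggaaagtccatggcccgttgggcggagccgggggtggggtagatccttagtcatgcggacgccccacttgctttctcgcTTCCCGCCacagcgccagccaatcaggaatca
Uhrf1, other start: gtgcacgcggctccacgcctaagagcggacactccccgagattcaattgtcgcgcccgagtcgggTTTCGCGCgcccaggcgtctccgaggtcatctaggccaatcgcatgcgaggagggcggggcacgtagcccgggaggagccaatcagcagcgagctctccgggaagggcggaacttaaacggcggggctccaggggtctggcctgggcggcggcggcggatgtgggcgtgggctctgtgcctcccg
Hells: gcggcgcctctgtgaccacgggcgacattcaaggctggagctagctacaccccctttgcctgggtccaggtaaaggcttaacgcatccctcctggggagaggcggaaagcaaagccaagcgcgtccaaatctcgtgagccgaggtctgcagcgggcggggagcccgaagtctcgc
Ezh2: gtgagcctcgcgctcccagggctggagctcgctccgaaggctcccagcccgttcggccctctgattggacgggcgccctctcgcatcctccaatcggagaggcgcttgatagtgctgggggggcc

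Both strands of the 250 bases before 15 starts of the 10 genes were searched. The E2F motif TTCCCGCC was found at the first start of Uhrf1, 48 bases before it, and in 1.86% of 32851 mouse promoters. Its variant TTTCGCGC was found 185 bases before the other start of Uhrf1 and 219 bases before a start of Dnmt1, and in 0.256% of promoters, while the variant TTTGGCGC, held by 0.417%, was in none of the 15. The TEAD motif GGAATG stood 193 bases before the first start of Uhrf1 and in 12.6% of promoters. The E-box CACGTG was found only before a start of Dnmt3a (6.02% of promoters), and the cell cycle motif TTTGAA before starts of Dnmt1, Dnmt3b, Eed and Suz12 (16% of promoters). The Hells and Ezh2 windows held none of the 6 motifs, which overlapped nowhere. Of CpG, the site of methylation, the windows of Uhrf1 held 10 and 30, that of Hells 28 and that of Ezh2 23, and the other windows between 2 (a start of Dnmt1) and 51 (Tet2), against a median of 6 over all promoters.

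Of the maintenance factors, Uhrf1 and Hells were the regulators that differed most from WT in R26 tet-Myc/YAP livers, and Dnmt1 did not pass. Uhrf1 stood at 3.16, 2.64 and 4.68 RPKM in the tet-Myc/YAP libraries, against 0.614, 0.494, 0.477 and 0.446 RPKM in WT. It was at 0.297 to 0.665 RPKM in the 6 tet-YAP libraries (median 0.338), and at 1.02, 0.38, 0.279 and 0.302 RPKM in tet-Myc. Each tet-Myc/YAP library thus lay above every other R26 library, and the difference from WT was 1.96 ± 0.22 (SE, adjusted p = 2.64e-06, limma). Hells stood at 2.34, 1.79 and 2.70 RPKM in tet-Myc/YAP and 0.510, 0.195, 0.294 and 0.588 RPKM in WT, a rise of 1.64 ± 0.17 (adjusted p = 1.47e-06, limma). Hells was at most 0.299 RPKM in tet-YAP and at most 0.484 RPKM in tet-Myc, so that its tet-Myc/YAP libraries also lay apart from all others. Dnmt1, the methyltransferase itself, was at 3.75, 3.51 and 3.64 RPKM in tet-Myc/YAP, above 2.81, 2.61, 2.31 and 2.10 RPKM in WT, but its difference of 0.49 ± 0.12 (adjusted p = 0.00208, limma) was just short of 0.5. It passed without WT library 1 (0.55), WT library 2 (0.51) or tet-Myc/YAP library 2 (0.51).

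**Figure D1:**
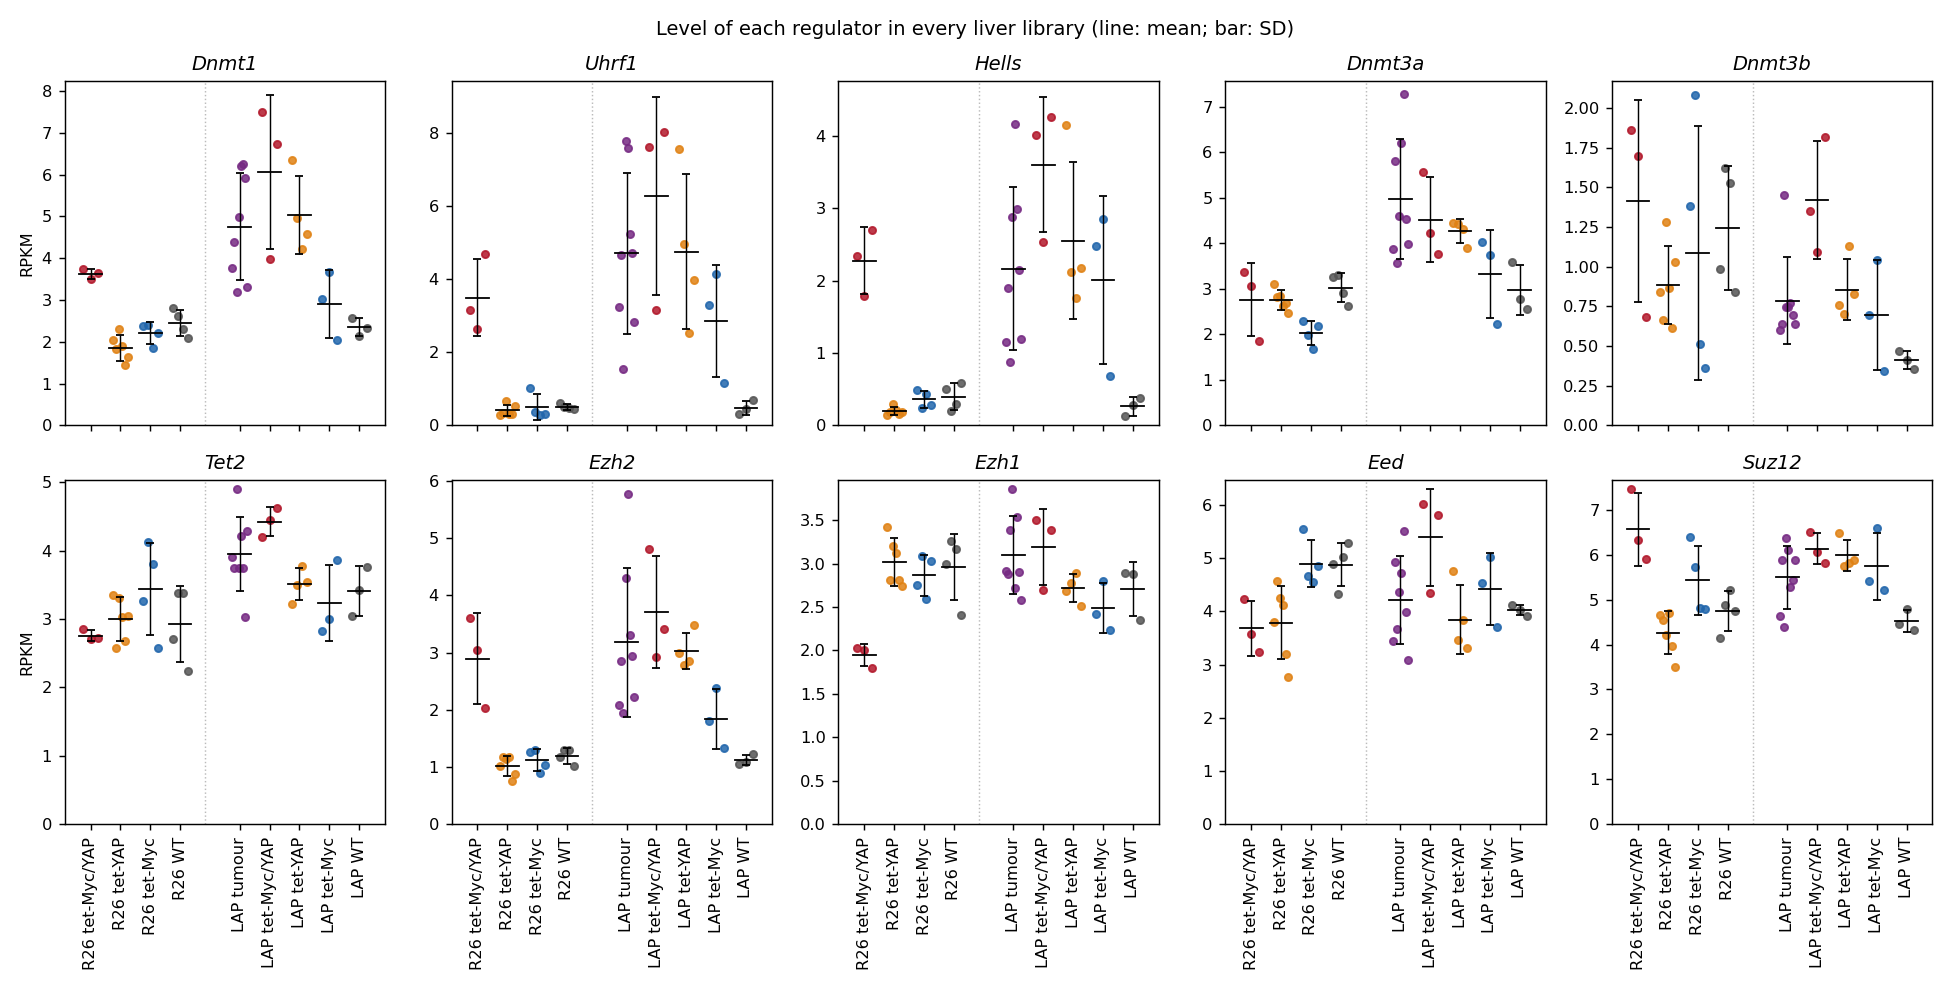
RPKM of each regulator (y axis, from 0) in the 38 liver libraries, by group (x axis), with points for libraries, lines for means and bars for the SD. In the R26 system (left of the dotted line) the 3 tet-Myc/YAP libraries of Uhrf1, Hells, Ezh2 and Dnmt1 lay above all others. In the LAP system Uhrf1 was at 1.15 RPKM or more in every library outside WT and at 0.301 to 0.691 RPKM in WT.

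Ezh2 rose in the same livers. It was at 3.60, 3.05 and 2.03 RPKM in tet-Myc/YAP and 1.17, 1.30, 1.30 and 1.01 RPKM in WT, with no overlap (0.98 ± 0.15, adjusted p = 5.32e-05, limma). Its paralog Ezh1 was at 2.03, 2.01 and 1.80 RPKM in tet-Myc/YAP, below 2.99, 3.26, 3.17 and 2.41 RPKM in WT (-0.49 ± 0.10, adjusted p = 0.000442, limma), short of the size required. Without WT library 4 (-0.57), tet-Myc/YAP library 1 (-0.52) or tet-Myc/YAP library 2 (-0.51) Ezh1 passed. Suz12, which holds PRC2 together, was at 7.47, 6.33 and 5.90 RPKM in tet-Myc/YAP and 4.14, 4.89, 5.22 and 4.74 RPKM in WT (0.43, adjusted p = 0.00443, limma). Eed, which binds the mark that PRC2 sets, was at 4.24, 3.57 and 3.23 RPKM in tet-Myc/YAP and 4.89, 4.32, 5.02 and 5.29 RPKM in WT (-0.37, adjusted p = 0.0232, limma). In these RPKM all tet-Myc/YAP libraries of Ezh2 and Suz12 lay above those of WT and all of Eed and Ezh1 below, but Ezh2 alone passed, and the median of all genes was -0.39. The de novo enzymes Dnmt3a (2.76 ± 0.811 RPKM in tet-Myc/YAP, n = 3, and 3.02 ± 0.319 in WT, n = 4) and Dnmt3b (1.41 ± 0.637 in tet-Myc/YAP and 1.24 ± 0.389 in WT) overlapped with WT, as did Tet2 (2.76 ± 0.0817 in tet-Myc/YAP and 2.93 ± 0.560 in WT).

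In all, 3 of 10 regulators rose and none fell in R26 tet-Myc/YAP against WT, where 4.61% of all genes tested rose. That comparison was lopsided, as 519 genes rose and 4232 fell and the median of all genes was -0.39. Once libraries were rescaled by median ratios, 1445 genes rose and 923 fell, and 5 of 10 regulators rose against 12.8% of all genes. On that scale Dnmt1 (0.88, adjusted p = 8.46e-06, limma) and Suz12 (0.84, adjusted p = 2.25e-05, limma) joined Uhrf1, Hells and Ezh2, while Ezh1 was at -0.12 and Eed at 0.04. The direction of Eed in these livers, and any fall of Ezh1, thus depended on the scaling, and those of Uhrf1, Hells, Ezh2, Dnmt1 and Suz12 did not. In the male-pattern libraries alone Uhrf1 (1.75), Hells (1.53) and Ezh2 (1.17) kept their calls. With each close pair averaged Uhrf1 (2.06), Hells (1.7) and Ezh2 (0.88) still passed, and Ezh1 (-0.52) passed in addition.

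In livers with a single transgene no regulator passed at 2 days. In R26 tet-YAP livers 0 of 10 regulators passed, where 6.19% of all genes did in either direction. Dnmt1 was lower but short of the size required (1.86 ± 0.307 RPKM in tet-YAP, n = 6, and 2.46 ± 0.315 in WT, n = 4, difference -0.33, adjusted p = 0.0324, limma). So was Eed (-0.34, adjusted p = 0.0444, limma), while Hells (-0.34, adjusted p = 0.101, limma) was lower only at an unadjusted p under 0.05. In R26 tet-Myc livers 0 of 10 passed, against 4.87% of all genes, and Dnmt3a alone of the 10 had an unadjusted p under 0.05. Dnmt3a was at 2.29, 1.99, 1.69 and 2.19 RPKM in tet-Myc and 3.26, 3.30, 2.91 and 2.63 RPKM in WT, with no overlap (-0.47, adjusted p = 0.0293, limma). The difference of Dnmt3a reached -0.53 without WT library 4, -0.52 without tet-Myc library 1 and -0.50 without tet-Myc library 4, and passed in each case.

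Against tet-YAP, 5 of 10 regulators were higher in R26 tet-Myc/YAP (4.22% of all genes were): Uhrf1 by 2.11, Hells by 1.98, Ezh2 by 1.14, Dnmt1 by 0.82 and Suz12 by 0.57. Ezh1 was the only regulator of 10 that was lower (-0.52, adjusted p = 0.000205, limma), in a contrast where 23.2% of all genes were, and it did not pass once libraries were rescaled (-0.26) or without tet-YAP library 1 (-0.49) or tet-Myc/YAP library 3 (-0.48). Suz12 missed the size required without tet-Myc/YAP library 1 (0.48). Against tet-Myc, 4 of 10 were higher (4.76% of all genes were): Uhrf1 by 2.03, Hells by 1.69, Ezh2 by 1.04 and Dnmt1 by 0.61. The interaction of Myc and YAP, which asks whether the joint difference exceeds the sum of the separate ones, was called above 0 for the same 4 (4.46% of all genes). It was 2.18 ± 0.29 for Uhrf1, 2.03 ± 0.22 for Hells, 1.20 ± 0.20 for Ezh2 and 0.94 ± 0.16 for Dnmt1 (adjusted p = 9.94e-05, 2.8e-05, 0.000432 and 0.000418, limma). Ezh1 had an interaction of -0.49 (adjusted p = 0.0089, limma), short of the size required. These contrasts share the tet-Myc/YAP libraries and are not separate evidence.

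**Figure D2:**
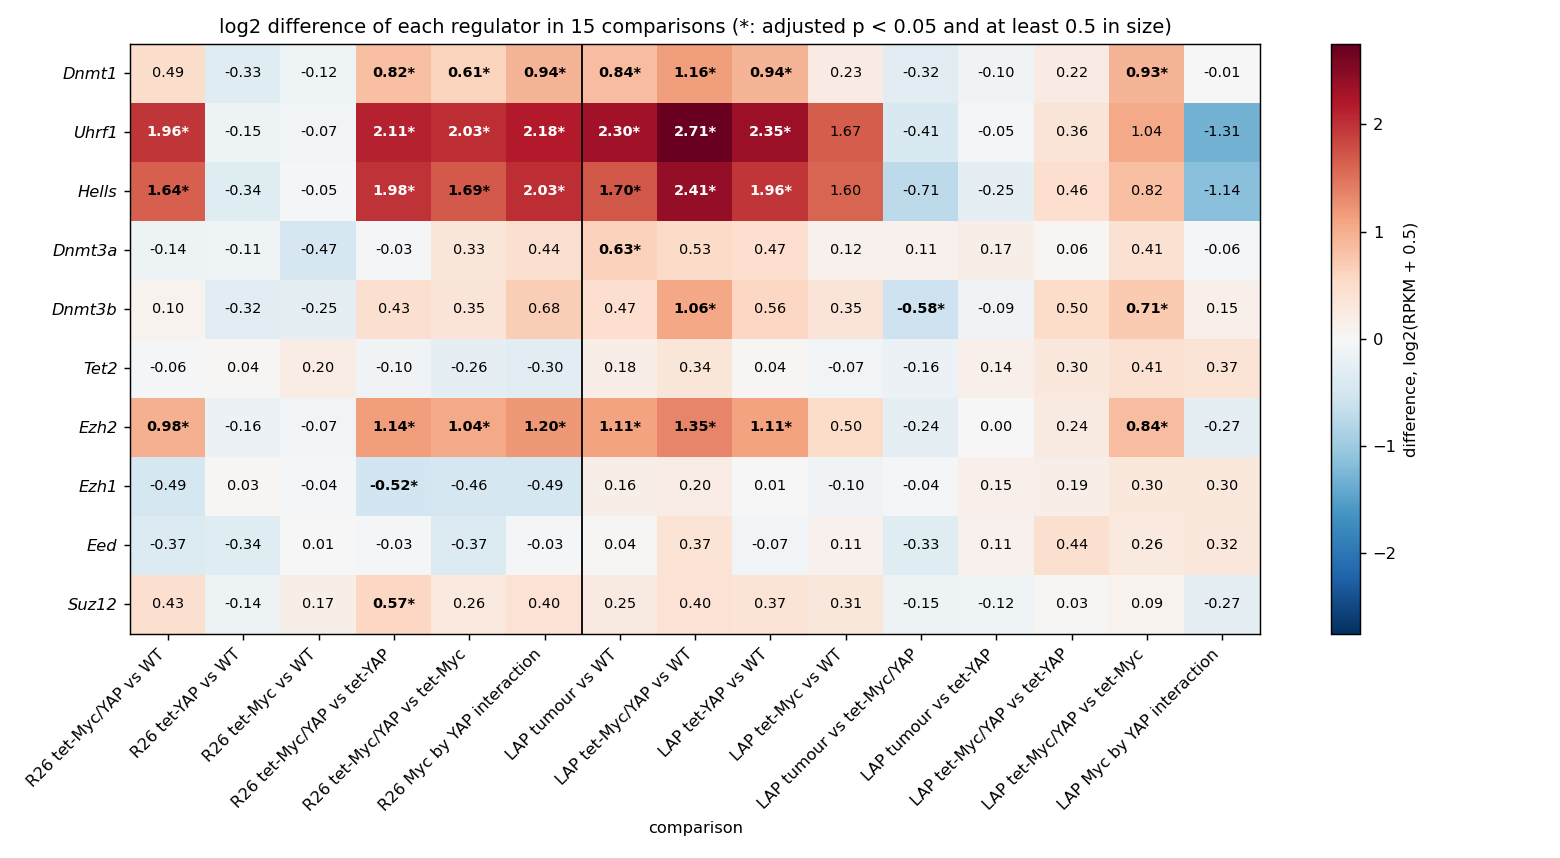
Difference of each regulator (rows) in 15 comparisons (columns, R26 left and LAP right of the black line), on the log2(RPKM + 0.5) scale, with red for higher and blue for lower in the group named first and a star where a difference passed. Uhrf1, Hells and Ezh2 passed in R26 tet-Myc/YAP, LAP tumour, LAP tet-Myc/YAP and LAP tet-YAP against WT.

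In LAP tet-YAP livers, at 4 weeks, 4 of 10 regulators rose, where 11.5% of all genes did. Uhrf1 was at 7.56, 4.96, 2.53 and 3.97 RPKM in tet-YAP and 0.301, 0.456 and 0.691 RPKM in WT (2.35 ± 0.45, adjusted p = 0.00124, limma). Hells was at 4.15, 2.12, 1.76 and 2.18 RPKM in tet-YAP and 0.126, 0.281 and 0.378 RPKM in WT (1.96, adjusted p = 0.00173, limma). Neither gene had a tet-YAP library near the WT range. Ezh2 was at 3, 2.78, 2.85 and 3.48 RPKM in tet-YAP and 1.06, 1.09 and 1.23 RPKM in WT (1.11, adjusted p = 0.00413, limma), and Dnmt1 at 5.03 ± 0.934 RPKM in tet-YAP (n = 4) and 2.35 ± 0.211 in WT (n = 3; 0.94, adjusted p = 0.0074, limma). All 4 tet-YAP libraries were above WT for Dnmt3b (0.856 ± 0.19 RPKM in tet-YAP and 0.413 ± 0.0565 RPKM in WT, difference 0.56, adjusted p = 0.0515, limma), Dnmt3a (0.47) and Suz12 (0.37), none of which passed. On rescaled libraries Dnmt3b (0.62) and Dnmt3a (0.58) did. Only 1 tet-YAP library has the female pattern, and in female-pattern libraries alone none of the 4 passed, with Uhrf1 at 2.35 and Ezh2 at 0.98.

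LAP tet-Myc/YAP livers had the highest mean of the 5 LAP groups for each regulator except Dnmt3a, whose mean was highest in tumours, though their libraries mostly overlapped with those of tet-YAP livers and tumours. This order rested on the scaling, and on rescaled libraries tet-Myc/YAP had the highest mean for Uhrf1, Hells, Dnmt3b and Eed, tet-YAP for Suz12 (6.02, beside 5.24 in tet-Myc/YAP), and tumours for Dnmt1, Dnmt3a, Tet2, Ezh2 and Ezh1. Against WT 5 of 10 regulators rose, where 22.5% of all genes did. Uhrf1 was at 7.63, 3.15 and 8.03 RPKM in tet-Myc/YAP (2.71 ± 0.48, adjusted p = 0.000193, limma), Hells at 4.01, 2.53 and 4.26 RPKM (2.41), Ezh2 at 4.81, 2.92 and 3.41 RPKM (1.35) and Dnmt1 at 7.49, 3.99 and 6.74 RPKM (1.16). Dnmt3b was at 1.35, 1.09 and 1.82 RPKM in tet-Myc/YAP and 0.469, 0.414 and 0.356 RPKM in WT (1.06, adjusted p = 0.0012, limma), a call lost under quantile normalization (0.55). Library 2 was the lowest of the 3 in each of these 5 genes. Against LAP tet-YAP 0 of 10 passed, where 28.9% of all genes did in either direction, with Dnmt3b (0.50), Eed (0.44) and Tet2 (0.30) at an unadjusted p under 0.05. Eed passed without tet-YAP library 1 (0.54) or tet-Myc/YAP library 2 (0.57).

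Against LAP tet-Myc, 3 of 10 regulators were higher in tet-Myc/YAP (19% of all genes were): Dnmt1 by 0.93, Ezh2 by 0.84 and Dnmt3b by 0.71. These 3 calls rested on few libraries, as 0 of 10 passed without tet-Myc/YAP library 1, 1 of 10 (Dnmt1) without tet-Myc library 1, and 1 of 10 (Tet2, 0.53) without tet-Myc library 3. Without tet-Myc/YAP library 3 Dnmt3b did not pass (0.56), and without tet-Myc/YAP library 2 Uhrf1 passed too (1.44). In LAP tet-Myc livers 0 of 10 passed against WT, where 3 of 12591 genes did (0.0238%). Uhrf1 was at 3.29, 4.14 and 1.15 RPKM in tet-Myc and at most 0.691 RPKM in WT (1.67 ± 0.48, adjusted p = 0.19, limma). Hells was at 2.48, 2.85 and 0.685 RPKM in tet-Myc and at most 0.378 RPKM in WT (1.60, adjusted p = 0.187, limma). All 3 tet-Myc libraries of both genes lay above WT, with library 3 far below the others. Without tet-Myc library 3 both passed, Uhrf1 at 2.11 and Hells at 2.07, and Suz12 at 0.31 had an unadjusted p under 0.05 with all libraries. The interaction of Myc and YAP passed for 0 of 10 in the LAP system (15.7% of all genes in either direction), at -1.31 for Uhrf1 (adjusted p = 0.159, limma) and -1.14 for Hells (adjusted p = 0.163, limma). The difference between the R26 and LAP interactions was not tested, as the tables were made separately.

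The tumours of tet-YAP mice varied widely. Against WT 5 of 10 regulators rose and none fell, where 21.5% of all genes rose and 31.3% fell. Uhrf1 ran to 7.77 RPKM from a lowest value of 1.54 RPKM over the 8 tumours (median 4.70), against 0.301 to 0.691 RPKM in WT (2.30 ± 0.40, adjusted p = 5.45e-05, limma). Hells lay between 0.879 and 4.16 RPKM in tumours (median 2.02; 1.7, adjusted p = 0.000297, limma), Ezh2 between 1.95 and 5.77 RPKM (median 2.90; 1.11, adjusted p = 0.000301, limma) and Dnmt1 between 3.20 and 6.26 RPKM (median 4.69; 0.84, adjusted p = 0.00184, limma). All 8 tumours lay above every WT liver for these 4 genes. Tumours 4 and 5 had the highest Uhrf1 and Ezh2, and tumour 3 the lowest Uhrf1, Hells, Dnmt1, Dnmt3a and Ezh2 but the highest Dnmt3b and Tet2. Dnmt3a passed against WT in tumours, at 3.56 to 7.29 RPKM (median 4.57) in tumours and 2.56 to 3.59 RPKM in WT (0.63, adjusted p = 0.00663, limma), and its lowest tumour lay within the WT range. The female-pattern tumours against the 2 female-pattern WT livers gave the same 5 calls, with Uhrf1 at 2.16, Hells at 1.57, Ezh2 at 1.08, Dnmt1 at 0.90 and Dnmt3a at 0.76.

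Against LAP tet-YAP livers 0 of 10 regulators passed in tumours, where 25.4% of all genes did in either direction, and none of the 10 had an unadjusted p under 0.05. The differences ran to 0.17 ± 0.17 for Dnmt3a from a lowest of -0.25 ± 0.31 for Hells, and the standard errors of 0.36 for Uhrf1 and 0.20 for Ezh2 leave room for sizeable differences. Against LAP tet-Myc/YAP, 1 of 10 was lower, where 26.4% of all genes were: Dnmt3b, at 0.786 ± 0.276 RPKM in the 8 tumours and 1.42 ± 0.374 RPKM in the 3 tet-Myc/YAP livers (-0.58, adjusted p = 0.0186, limma). This call was lost on rescaling (-0.35), in female-pattern libraries alone (-0.44) and without tet-Myc/YAP library 1 (-0.60) or 3 (-0.44). Dnmt1 was lower in tumours without tet-Myc/YAP library 2 (-0.57), and Hells without tumour 5 (-0.84).

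The balance of paralogs was read within each library as the log2 ratio of (RPKM + 0.5). Ezh2 to Ezh1 stood at 0.44 ± 0.28 in R26 tet-Myc/YAP (SD, n = 3) and -1.02 ± 0.06 in WT (n = 4), and at -1.21 ± 0.16 in tet-YAP (n = 6) and -1.05 ± 0.14 in tet-Myc (n = 4). In the LAP system it was -0.03 ± 0.48 in tumours (n = 8), 0.17 ± 0.21 in tet-Myc/YAP (n = 3), 0.13 ± 0.19 in tet-YAP (n = 4), -0.37 ± 0.19 in tet-Myc (n = 3) and -0.97 ± 0.22 in WT (n = 3). None of these LAP groups overlapped with WT. Exact permutation tests over libraries, two-sided, gave p = 0.0571 for R26 tet-Myc/YAP, 0.0571 for LAP tet-YAP, 0.1 for LAP tet-Myc/YAP, 0.1 for LAP tet-Myc and 0.0121 for tumours. Each of these is the smallest its group sizes allow. For R26 tet-YAP the exact test gave p = 0.0476. With the close R26 pairs averaged, R26 tet-Myc/YAP and WT kept 2 values each, for which the smallest exact p is 0.333, and the difference in this ratio was 1.4. After adjustment over 7 comparisons none passed (smallest exact adjusted p = 0.0848). The comparisons with an exact p of 0.0571 or 0.1 could not have passed whatever their values, so no conclusion is drawn from their not passing. Dnmt3b to Dnmt3a differed less. It was -0.80 ± 0.16 in R26 tet-Myc/YAP and -1.04 ± 0.29 in WT, and -2.08 ± 0.48 in tumours, -1.39 ± 0.45 in LAP tet-Myc/YAP and -1.92 ± 0.14 in LAP WT (smallest exact adjusted p = 0.525).

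**Figure D3:**
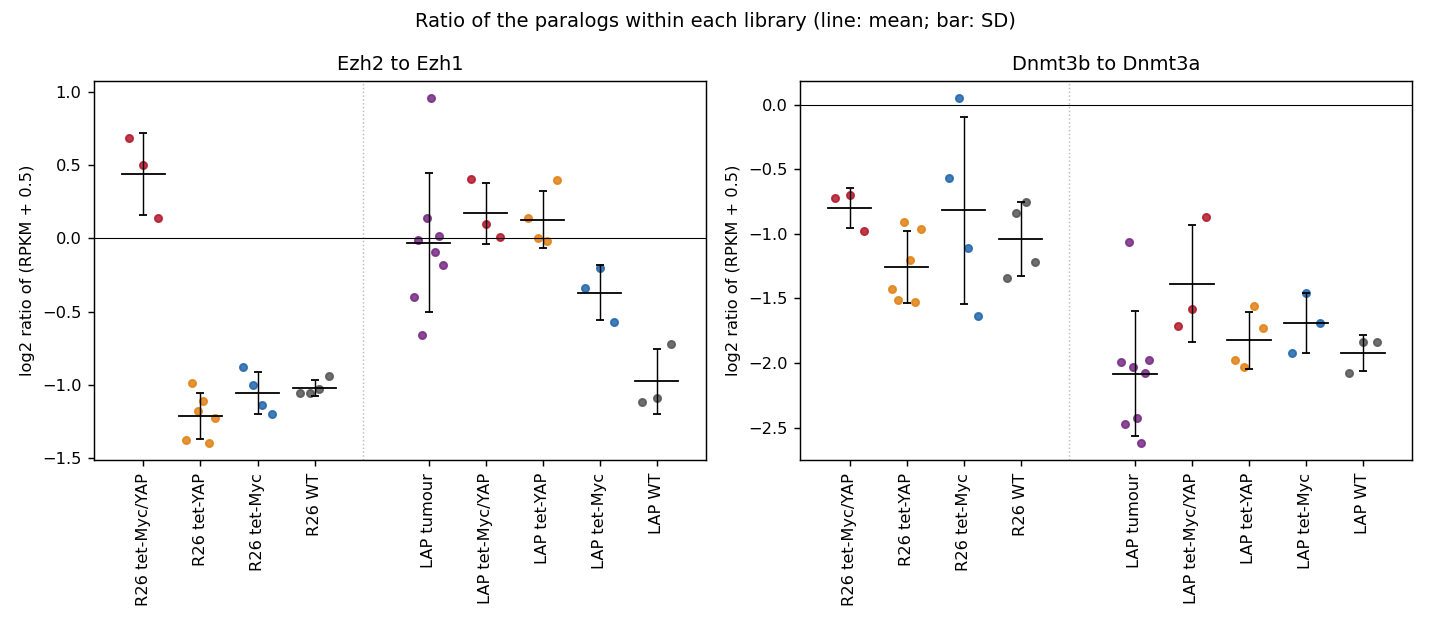
Ratio of Ezh2 to Ezh1 and of Dnmt3b to Dnmt3a in every library (log2 of RPKM + 0.5, y axis) by group (x axis), with lines for means and bars for the SD. The Ezh2 to Ezh1 ratio averaged 0.44 in R26 tet-Myc/YAP and -1.02 in R26 WT, and from -0.37 to 0.17 in the LAP groups other than WT, at -0.97.

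Cell cycle genes were set beside the regulators. Lists of 20 S phase genes and 14 mitosis genes were used. In R26 tet-Myc/YAP 15 of 18 tested S phase genes rose (median 1.18, against -0.39 over all genes) and 9 of 9 tested mitosis genes (median 2.01). Many of these, like Uhrf1, entered because they were high there, so that these counts partly follow from the filter on low values. With no filter 17 of 20 S phase genes and 14 of 14 mitosis genes rose (medians 1.16 and 1.94, against -0.14 over all genes). Examples are the replicative polymerase Pole (2.13, adjusted p = 7.29e-08, limma), the replication helicase subunit Mcm5 (1.82, adjusted p = 5.17e-07, limma) and the cyclin Ccna2 (2.39, adjusted p = 3.62e-06, limma). In R26 tet-YAP and tet-Myc livers 0 of 18 S phase genes and 0 of 9 mitosis genes passed. In tumours 16 of 20 S phase genes rose and 1 fell, and 14 of 14 mitosis genes rose. The same lists gave 19 of 20 and 14 of 14 in LAP tet-Myc/YAP, 14 of 20 and 13 of 14 in LAP tet-YAP, and 0 of 20 and 0 of 14 in LAP tet-Myc. Over all genes tested 4.61% rose in R26 tet-Myc/YAP, 21.5% in tumours, 22.5% in LAP tet-Myc/YAP and 11.5% in LAP tet-YAP.

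In 1 group, R26 tet-Myc/YAP, the lists differed in order between libraries. R26 tet-Myc/YAP library 3 had the highest summed S phase level of its group (112 RPKM, against 108 and 91.7 RPKM in libraries 1 and 2) and the lowest summed mitosis level (21.5 RPKM, against 97.4 and 80.4 RPKM). Uhrf1 and Hells were highest in that library and Ezh2 lowest, at 2.03 RPKM. LAP tet-Myc library 3, in which Uhrf1 and Hells were lowest, had the lowest sums of its group in both lists (60.9 and 9.05 RPKM), as had tumour 3 (61.5 and 19.8 RPKM).

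**Figure D4:**
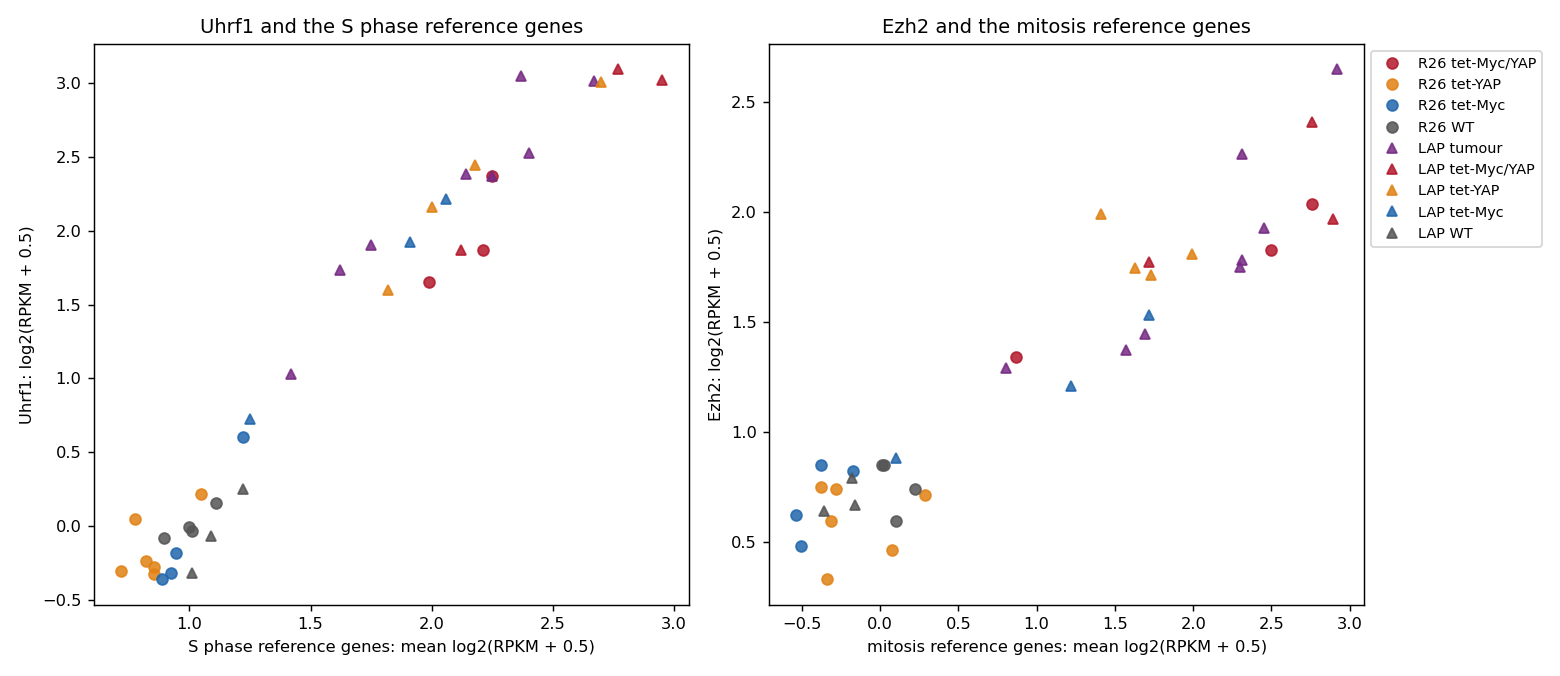
Level of Uhrf1 against the mean of 20 S phase genes, and of Ezh2 against the mean of 14 mitosis genes, in 38 libraries (all axes log2(RPKM + 0.5), circles for R26 and triangles for LAP livers). R26 tet-Myc/YAP library 3 stands with the other tet-Myc/YAP libraries for Uhrf1 but lower for Ezh2, at 2.03 RPKM beside 3.60 and 3.05 RPKM.

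Genes most like each regulator that passed in a comparison, so not Tet2 or Eed, were sought among those tested in both systems. Pearson's r over the 17 R26 and the 21 LAP libraries was used, with the lower r as the measure. It is a description in which all genes share libraries and their depth. Uhrf1 was most like Fignl1, a recombination factor (0.99 in R26, 0.98 in LAP), Mcm6 (0.97 in both), Atad2, Chek1 and Mcm5. Hells was most like the checkpoint kinase Chek1 (0.98 and 0.97), followed by Mcm5, Uhrf1 (0.95 and 0.96), Topbp1 and Atad2. Dnmt1 was most like Rrm1, a subunit of ribonucleotide reductase (0.92 and 0.94), Topbp1, Wdhd1, Atad2 and Mcm3. Ezh2 had other neighbours, Lmnb1 of the nuclear lamina (0.94 and 0.95), the condensin subunit Ncapd2 (0.96 and 0.93), Kif11, Racgap1 and Aurkb, most of which act in mitosis. Suz12 followed Topbp1 less closely (0.84 and 0.80). Dnmt3a was most like the remodeler subunit Bptf (0.90 and 0.84), while the closest genes to Dnmt3b (Dtx4, 0.76 and 0.78) and Ezh1 (Itm2c, 0.88 and 0.80) were no cell cycle genes. Between regulators the r of Ezh1 with Hells was -0.91 in R26 and 0.33 in LAP libraries.

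Of 14 tested DNA methylation factors beyond the regulators, 2 were higher and 3 lower in R26 tet-Myc/YAP (median -0.26, against -0.39 over all genes), where 4.61% of all genes were higher and 37.6% lower. Cdca7, which works with Hells, rose to 3.13 ± 0.309 RPKM in tet-Myc/YAP (n = 3), against 1.08 ± 0.12 in WT (n = 4; 1.20, adjusted p = 0.00125, limma), and the methyl-binding zinc finger protein Zbtb4 fell (-0.82, adjusted p = 3.42e-06, limma). On rescaled libraries 2 of these factors rose and none fell. In LAP tet-Myc/YAP 5 of 15 rose and none fell (median 0.38, against 0.11 over all genes), with Cdca7 at 7.67 ± 1.56 RPKM in tet-Myc/YAP and 1.57 ± 0.411 in WT (n = 3 each; 1.99, adjusted p = 0.00075, limma) and its relative Cdca7l at 3.65 ± 1.17 RPKM in tet-Myc/YAP and 0.201 ± 0.0543 RPKM in WT (2.53, adjusted p = 1.11e-05, limma). In tumours 3 of 15 rose and 1 fell (median 0.23, against -0.14), and in LAP tet-YAP 2 rose and 1 fell. Over all genes tested 22.5% rose and 14% fell in LAP tet-Myc/YAP, 21.5% and 31.3% in tumours, and 11.5% and 15.3% in LAP tet-YAP. The glycosylase Mbd4 rose in R26 tet-Myc/YAP (0.63), LAP tet-Myc/YAP (0.85), LAP tet-YAP (0.56) and tumours (0.73).

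Of 8 genes for oxidation and repair of methylcytosine 4 were higher and 1 lower in LAP tet-Myc/YAP, 2 and 1 in LAP tet-YAP, and 1 and 1 in tumours. Over all genes tested 22.5% were higher and 14% lower in LAP tet-Myc/YAP. The shares were 11.5% and 15.3% in LAP tet-YAP, and 21.5% and 31.3% in tumours. Of the 8 genes Tet1, a dioxygenase like Tet2, differed most. It was at 1.68 ± 0.132 RPKM in LAP tet-Myc/YAP (n = 3), 0.803 ± 0.337 in tet-YAP (n = 4) and 1.22 ± 0.608 in tumours (n = 8), against 0.0672 ± 0.024 in WT and 0.0544 ± 0.0153 in tet-Myc (n = 3 each). Its rise was 1.94 in tet-Myc/YAP (adjusted p = 4.91e-05, limma), 1.16 in tet-YAP (adjusted p = 0.00535, limma) and 1.53 in tumours (adjusted p = 2.83e-05, limma), and it entered the test because it was high in these groups. With no filter on low values it passed in the same 3 groups (adjusted p = 0.000105, 0.00848 and 6.1e-05, limma). In R26 livers Tet1 was at most 0.0966 RPKM, whereas Tet2 passed in no comparison with all libraries. Tet3 rose in R26 tet-Myc/YAP (0.68, adjusted p = 0.001, limma) and in LAP tet-YAP (0.58, adjusted p = 0.0217, limma), and Idh1, which makes the cosubstrate of these enzymes, fell in R26 tet-Myc/YAP (-0.69), R26 tet-YAP (-0.50), LAP tet-Myc/YAP (-0.71), LAP tet-YAP (-0.59) and tumours (-1.23). On rescaled libraries no gene of this list fell in R26 tet-Myc/YAP, R26 tet-YAP or LAP tet-YAP.

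Of genes that supply S-adenosylmethionine, the methyl donor, 5 of 10 fell and none rose in tumours, where 31.3% of all genes fell, among them Mat1a, the liver synthetase (25.0 ± 5.33 RPKM in tumours, n = 8, and 52.6 ± 10.1 in WT, n = 3; -1.07, adjusted p = 3.63e-05, limma), Ahcy (-1.01) and Gnmt (-1.86). In R26 tet-Myc/YAP 3 of 10 fell, a smaller share than the 37.6% of all genes, and in LAP tet-YAP 3 fell and 1 rose (15.3% of all genes fell), while 1 of 10 fell in LAP tet-Myc/YAP, R26 tet-YAP and R26 tet-Myc. These are among the most abundant genes, and the highest levels that any gene reached were also lower in tumours than in WT. The mean of Mat1a in WT lay above the cap in every tumour, which was at most 38.6 RPKM. Tumour libraries were also deeper than those of WT, and the part of the cap in these falls was not tested.

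**Figure D5:**
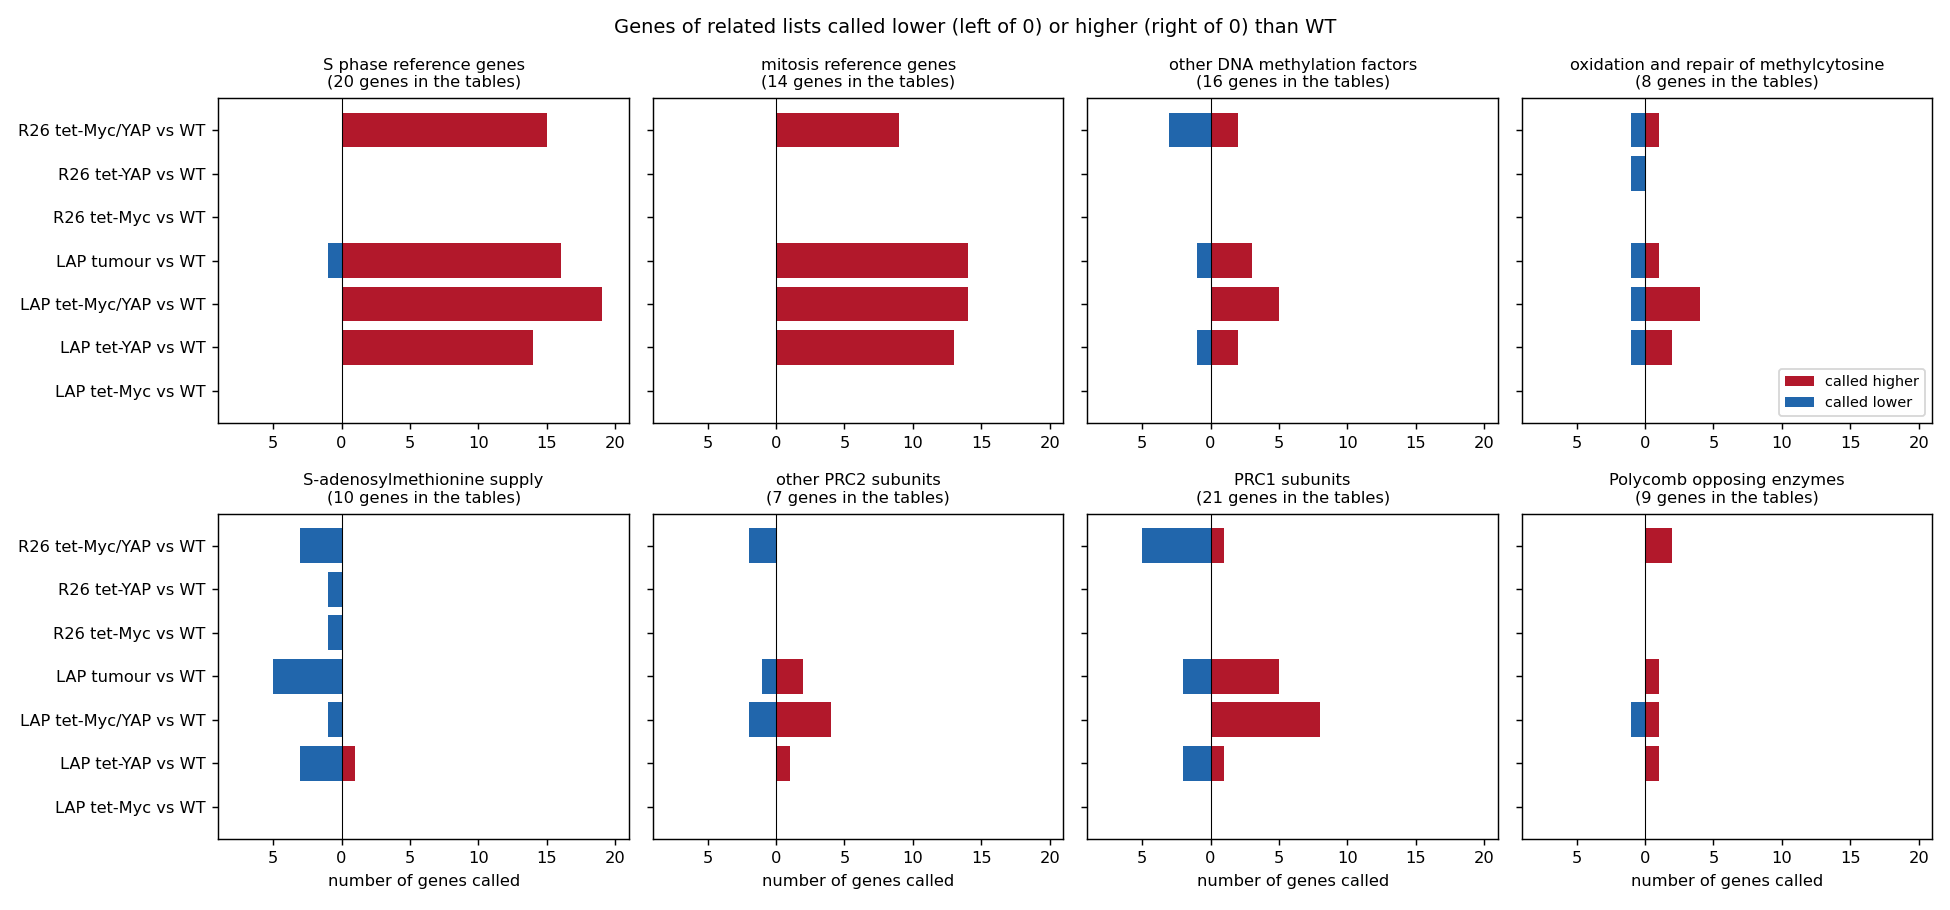
Genes of 8 related lists that were higher (red, right of 0) or lower (blue, left of 0) in each group than in WT (x axis, number of genes). In R26 tet-Myc/YAP 5 PRC1 subunits were lower and 1 higher, and in LAP tet-Myc/YAP 8 rose and none fell, beside 37.6% of all genes lower and 4.61% higher in the R26 and 14% lower and 22.5% higher in the LAP comparison.

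Of 7 accessory subunits of PRC2, 6 were tested in R26 and 0 rose and 2 fell in tet-Myc/YAP, Rbbp4 (-0.62) and Phf1 (-0.59), a share near the 37.6% of all genes. On rescaled libraries 1 rose and none fell. In LAP tet-Myc/YAP 4 rose and 2 fell, where 22.5% of all genes rose and 14% fell, with Mtf2, which guides PRC2 to its sites, at 4.40 ± 0.0621 RPKM in tet-Myc/YAP and 1.71 ± 0.127 in WT (n = 3 each; 1.15, adjusted p = 0.00016, limma). In tumours Aebp2 (0.92) and Mtf2 (0.83) rose and Phf19 fell (-0.52), and in LAP tet-YAP Aebp2 alone passed (0.52). Of 21 subunits of PRC1, which ubiquitinates histone H2A, 19 were tested in R26, with 5 lower and 1 higher in tet-Myc/YAP, among them Cbx8 (-0.90) and Pcgf1 (-0.99), where 37.6% of all genes were lower. On rescaled libraries 2 were lower and 2 higher. In LAP tet-Myc/YAP 8 of 20 rose and none fell (5 and 0 on rescaled libraries), and in tumours 5 rose and 2 fell, where 21.5% of all genes rose and 31.3% fell. Cbx6 was at 5.29 ± 0.819 RPKM in tumours (n = 8), 4.82 ± 1.91 in tet-Myc/YAP (n = 3) and 1.28 ± 0.185 in WT (n = 3), a rise of 1.7 in tumours (adjusted p = 9.39e-08, limma). Of 9 genes listed as opposing Polycomb, which are enzymes and partners of enzymes, 2 rose in R26 tet-Myc/YAP, where 4.61% of all genes rose. They were the enzyme Kmt2d (0.73) and Asxl1 (0.66), a partner of the enzyme Bap1. In the LAP system Asxl1 rose in tet-Myc/YAP (0.69), tet-YAP (0.62) and tumours (0.75), while Kmt2d, a histone methyltransferase of active genes, fell in tet-Myc/YAP (-0.66). The medians of the R26 tet-Myc/YAP lists, -0.09 for PRC2 and -0.24 for PRC1, stood above the -0.39 of all genes.

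Genes known from other tissues to be silenced by PRC2 were mostly too low to test. Of 16, 4 were tested in R26, and none rose in tet-Myc/YAP, where Gata4 fell (-0.66), a call lost on rescaled libraries. In the LAP system 5 were tested, some of them, such as Sox9, because they were high in the groups compared with WT. In tumours 4 rose and 1 fell, Sox9 to 4.04 ± 1.74 RPKM in tumours (n = 8), against 0.213 ± 0.0377 in WT (n = 3; 2.53, adjusted p = 2.17e-05, limma), Gata6 by 1.25 and Cdkn2b by 1.56, while Gata4 fell (-1.05). In LAP tet-Myc/YAP 3 of 5 rose, Sox9 (2.05), Gata6 (1.10) and the cell cycle inhibitor Cdkn1c (3.25), which was at 17.4 ± 12.2 RPKM in tet-Myc/YAP and 1.05 ± 0.107 in WT (n = 3 each). Over all genes tested 21.5% rose and 31.3% fell in tumours, 22.5% and 14% in LAP tet-Myc/YAP, and 4.61% and 37.6% in R26 tet-Myc/YAP. With no filter 15 of the 16 entered, of which 4 rose and 2 fell in tumours and 3 rose and 1 fell in LAP tet-Myc/YAP, and in R26 tet-Myc/YAP 0 of 13 rose and 2 fell. Sox9 is itself 1 of the 6 cholangiocyte markers used here, so it stands in both lists. Of those markers, Sox9 included, 6 of 6 rose in tumours (median 2.82) and 4 of 6 in LAP tet-Myc/YAP (median 1.83). The part of cell makeup in the rise of Sox9 was not tested. Of 16 germline genes known to be silenced by DNA methylation, 1 was tested. It was Sycp3, which fell in tumours, at 0.762 ± 0.413 RPKM in tumours (n = 8) and 1.4 ± 0.403 in WT (n = 3; -0.65, adjusted p = 0.0343, limma), a call lost on rescaled libraries (-0.48) and with no filter. The summed level of all 16 was 0.412 to 1.43 RPKM in tumours and 1.47 to 2.18 RPKM in LAP WT, and 1.98 to 2.39 RPKM in R26 tet-Myc/YAP and 2.07 to 2.66 RPKM in R26 WT. In tet-Myc livers this sum lay above WT with no overlap, at 2.83 to 3.54 RPKM in LAP and 2.98 to 4.5 RPKM in R26 livers. Sycp3 alone averaged 1.4 RPKM in LAP WT, so that the sum there was mostly this 1 gene. Of the 16 genes, 7 were at 0 in all LAP tet-Myc libraries and 8 in all R26 tet-Myc libraries. WT was alike, with 7 at 0 in LAP WT and 6 in R26 WT. The 1 gene tested did not pass in tet-Myc against WT (0.76 in LAP and 0.49 in R26), and the sums were not tested.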

How the data were processed

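Liver RNA of mice was sequenced in 38 libraries. Per the labels, RNeasy MinElute columns were used for RNA and the TruSeq RNA v2 kit for libraries, leaving out its poly-T bead step. The kit keeps no strand, so reads of overlapping genes cannot be told apart. The submitters' processing notes name TopHat2 2.0.8, featureCounts 1.4.5-p1, SAMtools, DESeq2 and mm9. The authors deposited RPKM per gene in a table for each system, and a table of their own R26 comparisons (fold changes, adjusted p-values, calls) that was not used. Column names give only the group, so libraries were numbered in column order. Of 21671 genes, 27 with symbols turned into dates were left out. Depth was taken from the steps of low values, which matched whole reads (99.96% of 30541 values within 0.12 of a read), and ran between 22600000 and 54300000 reads.

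Group means were fitted to log2(RPKM + 0.5) in limma 3.58.1 under R 4.3.3 (lmFit, contrasts.fit, eBayes with a trend) over all libraries of a system. Genes entered with 1 RPKM or more in 3 libraries or more. Two-sided p-values were corrected by Benjamini and Hochberg over all genes that entered, and a difference passed with an adjusted p under 0.05 and a size of 0.5 or more. Alternatives were other pseudocounts, no filter, rescaled or quantile-normalized libraries, the sex pattern as a covariate, only the groups compared, close pairs averaged and each library left out, and, chosen after seeing the data, libraries of a single sex pattern and the lists with no filter or rescaled. In 6 pairs of R26 libraries the spread was only 1.48 to 2.55 times the counting variance, against 3.02 to 12.4 in 24 other R26 pairs and 2.58 to 44.3 in 43 LAP pairs. The cut-off that set these 6 pairs apart was chosen after seeing the data and applied to the R26 system alone. LAP tet-YAP libraries 3 and 4, at 2.58, lay close too but were not averaged in any alternative. The close pairs may be repeat libraries of 1 RNA, which the sources used here do not say, and were kept separate. All 10 regulators are named, with passing genes of smallest adjusted p per list (at most 4). Of the most alike genes, at most 5 are named per regulator that passed in a comparison of all libraries, which leaves out Tet2 and Eed. The regulators and lists were chosen with earlier results of these data known. Promoter sequences are from RefSeq (GRCm38.p6), in which 10 of 10 genes matched, with exons from GENCODE.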

Additional observations from a re-analysis of the deposited data

Results flagged for a closer look

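Uhrf1 was at 1.02 RPKM in R26 tet-Myc library 1, far above the other 3 tet-Myc libraries (0.38, 0.279 and 0.302 RPKM). Dnmt3b was at 1.45 RPKM in tumour 3, far above the other 7 tumours (0.603 to 0.77 RPKM). These are 2 of 50 sets examined, a set being 1 regulator in 1 group of 4 to 10 libraries, and chance alone flags about 1 set in 20.

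The joint difference exceeded the sum of the separate ones in the R26 system for Uhrf1 (2.18), Hells (2.03), Ezh2 (1.20) and Dnmt1 (0.94), by limma's test of the interaction.

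In tet-YAP livers every library of Dnmt1, Hells, Ezh2 and Suz12 lay below the mean of R26 WT and above the mean of LAP WT. The mean log2 differences were -0.33 in R26 and 0.94 in LAP livers for Dnmt1, -0.34 and 1.96 for Hells, -0.16 and 1.11 for Ezh2, and -0.14 and 0.37 for Suz12. None of these genes passed in R26 tet-YAP, and Suz12 passed in neither system. The median of all genes in R26 tet-YAP was -0.11. Relative to it Ezh2 was at -0.05 and Suz12 at -0.03, and Dnmt1 at -0.22 and Hells at -0.23. In tet-Myc/YAP livers Tet2 (-0.06 in R26 and 0.34 in LAP) and Eed (-0.37 and 0.37) also lay on opposite sides of the WT means, but not relative to all genes, whose median was -0.39 in R26. On rescaled libraries Tet2 was at 0.33 in R26 and 0.23 in LAP livers, and Eed at 0.04 and 0.26. The difference between the systems was not tested, since the tables were made separately, and induction time and activator differ with the system and cannot be told apart.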

How the results depend on the processing

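Of 35 differences that passed among 150, 24 passed under every alternative tried and none reversed. Of the 115 that did not pass, 44 changed sign and 24 passed under some alternative. No paired analysis was possible because the column names do not tie a library to a replicate number of the labels. For R26 tet-Myc/YAP against WT 5 of 10 regulators passed with a pseudocount of 0.1, of which Dnmt1 (0.55) was gained as higher and Ezh1 (-0.57) as lower. A different set of 5, with Dnmt1 and Suz12 gained and all higher, passed on rescaled libraries (12.8% of all genes were higher) and after quantile normalization. With each library left out 3 to 5 passed. For R26 tet-Myc against WT 1 passed with a pseudocount of 0.1 (0 to 1 with each library left out). For LAP tet-YAP against WT 0 passed in female-pattern libraries alone, where 1 tet-YAP library remained. For LAP tet-Myc against WT 0 to 2 passed with each library left out. For LAP tet-Myc/YAP against tet-YAP 2 passed with the sex pattern as a covariate (0 to 1 with each library left out). Against tet-Myc 1 passed after quantile normalization and 0 in female-pattern libraries alone (0 to 4 with each library left out). For tumours against tet-Myc/YAP 0 passed with a pseudocount of 1, 0 on rescaled libraries, 0 when the sex pattern was a covariate, and 0 in female-pattern libraries alone (0 to 2 with each library left out). The cause was not tested.

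Over all genes, rescaling gave 2368 calls in place of 4751 for R26 tet-Myc/YAP against WT, 1666 in place of 2883 for the R26 interaction, and 2548 in place of 4154 for tumours against tet-Myc/YAP. On rescaled libraries 2453 genes were higher and 2270 lower in LAP tet-Myc/YAP than in WT (2834 and 1764 before), 1915 and 1160 in LAP tet-YAP (1442 and 1931), 3528 and 2820 in tumours (2708 and 3943), and 331 and 247 in R26 tet-YAP (225 and 472). With close pairs averaged, 27 genes passed in place of 697 for R26 tet-YAP and 56 in place of 548 for R26 tet-Myc, both against WT. Quantile normalization gave 1710 in place of 3373 for LAP tet-YAP against WT. Female-pattern libraries alone, which are fewer, gave 96 there and 63 in place of 1975 for the LAP interaction.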
